A study of Schmidtea mediterranea with 18 samples.

Results

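The comparison described here set regenerating planarian fragments given APC RNAi against fragments given Bcat RNAi at days 1, 2 and 3 after amputation. It used 6 of the 18 libraries of the series, 3 APC RNAi and 3 Bcat RNAi, chosen by treatment and day from their labels and compared within days; it asked which transcripts already part the knockdowns early in regeneration. No control library entered it.

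The animals were Schmidtea mediterranea of the clonal asexual strain CIW4, a flatworm that rebuilds missing tissue from adult stem cells. All were otherwise wild type and received 3 RNAi feeds, directed at apc (APC RNAi) or at the planarian beta-catenin-1 gene (Bcat RNAi), and were amputated 3 days after the last feed. RNA came from regenerating trunk fragments in most labels, whereas the treatment protocol speaks of tail fragments; trunk is used here. RNA of 3 biological replicates was pooled into each library, so a treatment had 1 library per day. The days therefore stand in for replicates: SDs and p-values measure how constant a difference was over days 1 to 3, not how it varied between animals, and fewer cells of a type cannot be told apart from less RNA per cell.

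Beta-catenin is the transcriptional effector of canonical Wnt signalling, and APC belongs to the complex that marks it for breakdown, so the knockdowns push the pathway in opposite directions. In planarians, loss of beta-catenin-1 is known to give heads in place of tails, and loss of APC tails in place of heads. Transcripts carry SmedASXL identifiers of an asexual-strain transcriptome. These were not paired with gene names in the sources used here, so no named pathway, cell type marker or RNAi target was read, the labels could not be checked against the targeted genes, and single transcripts are given by identifier only.

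Aligned reads came to 49.5 M, 52.8 M and 54.4 M in APC RNAi at days 1, 2 and 3, and to 48 M, 57.7 M and 46.9 M in Bcat RNAi. The APC RNAi libraries of days 1 and 2 stood apart from the others in how many transcripts they detected. They had reads on 68507 and 68962 transcripts, the APC RNAi library of day 3 on 72986, and the Bcat RNAi libraries on 74266 to 75541. Levels are given in CPM, the usual unit of read counts scaled to library size. Transcripts below 1 CPM took 0.665%, 0.662% and 0.87% of the reads in APC RNAi, and 1.09% to 1.13% in Bcat RNAi. That share was lower in APC RNAi at 3 of 3 days (0.733% ± 0.119 against 1.11% ± 0.0225, SD, n = 3 libraries each), and a two-sided exact sign-flip test over the 3 days gave p = 0.25, the smallest it can give (0.25 after Benjamini-Hochberg adjustment over 3 such tests). The part of these differences in the results below was not tested.

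The knockdowns already differed widely within the first 3 days, with a small group of transcripts far apart and a large number slightly apart. Of 32352 transcripts tested, 8204 (25.4%) differed by edgeR's quasi-likelihood test with an adjusted p under 0.05, 5003 of them (15.5%) higher and 3201 (9.89%) lower in APC RNAi. A difference of 2-fold or more was reached by 357 on the higher side and 967 on the lower side. Most of the lower ones were scarce: 817 of the 967 lay below 1 CPM, as did 140 of the 357 higher ones. Among transcripts averaging 2 CPM or more the balance was the reverse, 179 higher and 88 lower. The APC RNAi libraries all lay above the Bcat RNAi libraries for 4320 of the 5003 higher transcripts, against 6166 (19.1%) of all transcripts tested. They all lay below for 2701 of the 3201 lower ones, against 6287 (19.4%) of all tested.

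Which side held more transcripts depended on abundance and on the scaling of the libraries. Below 1 CPM the calls were 211 on the higher and 1385 on the lower side of APC RNAi, and the median log2 difference of the 14767 tested was -0.36 (with loess offsets the calls there were 468 and 273). Above 64 CPM they were 1418 and 171, and the median of the 2656 tested was 0.20 (with loess offsets 483 and 535). Between 16 and 64 CPM, 1975 were higher and 374 lower; there the balance turned when the scaling used only transcripts with 4 CPM or more (865 higher, 934 lower) and with loess offsets (819 and 867). Over all transcripts the higher share of calls was 61% with TMM factors, 67.4% with DESeq2-type size factors, 51.4% with loess offsets, 82.4% in DESeq2's own test and 30.2% when only transcripts with 4 CPM or more set the scaling. The last choice shifted the median log2 difference of the whole table from -0.08 to -0.21. Without the day 2 libraries the calls fell to 2169 higher and 854 lower.

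The transcripts that were both well measured and far apart depended less on these choices. With a mean of at least 2 CPM over the 6 libraries, 14827 transcripts were tested, and 179 were called at least 2-fold higher and 88 at least 2-fold lower in APC RNAi. Over all alternatives of scaling, filtering, model and days left out, these counts ranged from 143 to 236 and from 74 to 124. At least 4-fold apart were 57 and 20 transcripts, and at least 8-fold apart 28 and 8. For 14231 of the 14827 (96%) the 95% interval of the difference lay wholly within 2-fold. Of the 8825 not called, 27 had an interval that reached past 2-fold. Below 1 CPM the interval lay within 2-fold for 5592 of 14767 transcripts (37.9%), so a 2-fold difference was often not detectable there.

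**Figure D1:**
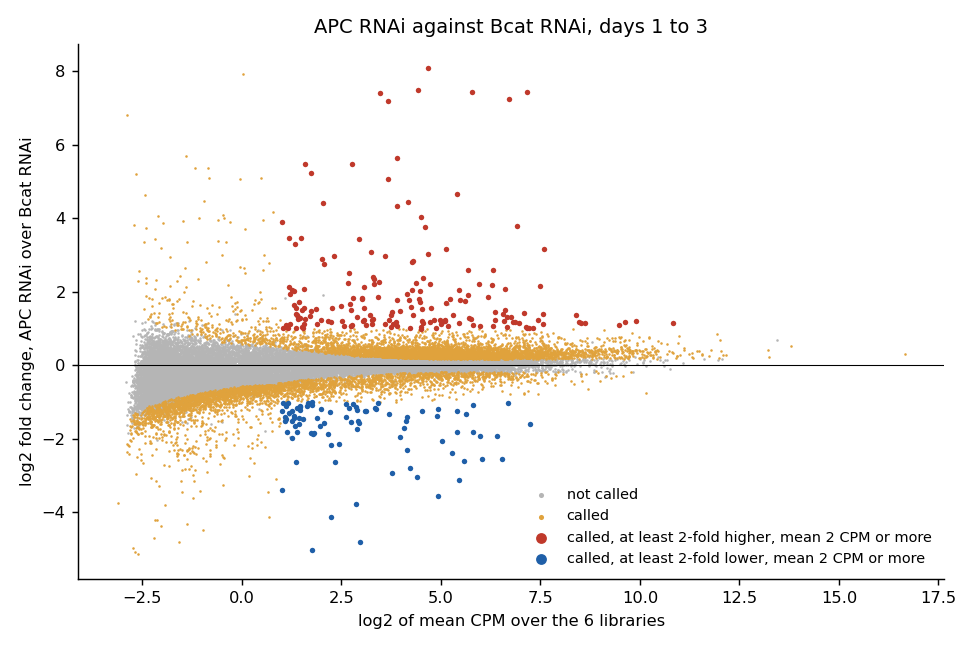
Log2 fold change of APC RNAi over Bcat RNAi at days 1 to 3 (vertical axis) against log2 mean CPM over the 6 libraries (horizontal axis), 1 point per transcript. The 179 transcripts called at least 2-fold higher (red) and the 88 called at least 2-fold lower (blue) with a mean of 2 CPM or more stand off from a band of small differences that lies below 0 at low abundance.

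The largest separation held at all 3 days was that of SmedASXL_048827, abundant in APC RNAi and at a few reads per library in Bcat RNAi. Its level was 81.0, 42.9 and 30.1 CPM in APC RNAi at days 1, 2 and 3, from 3449, 2046 and 1602 reads. It was 0.366, 0.112 and 0.0971 CPM in Bcat RNAi, from 19, 7 and 5 reads. The APC RNAi libraries lay far above the Bcat RNAi libraries, and both treatments were highest at day 1 and lowest at day 3. The means were 51.3 ± 26.5 and 0.192 ± 0.151 CPM (SD, n = 3 libraries each), and the log2 difference was 8.08 ± 0.12 (SE; edgeR quasi-likelihood adjusted p = 3.999e-10), higher at 3 of 3 days.

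SmedASXL_002629 followed a similar course. Its level was 68.8, 33.4 and 25.2 CPM in APC RNAi, and 0.443, 0.192 and 0.0777 CPM in Bcat RNAi, where 23, 12 and 4 reads were counted. The libraries did not overlap and the log2 difference was 7.48 ± 0.13 (SE; edgeR adjusted p = 4.051e-10). Among the 179 transcripts at least 2-fold higher, 15 were below 1 CPM in all 3 Bcat RNAi libraries. All 179 had the same direction at all 3 days, and for 178 the libraries did not overlap. The APC RNAi libraries all lay above for 6166 (19.1%) of all transcripts tested. The 179 were chosen in these same libraries, so their agreement over days describes the set and adds no support.

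In the other direction, SmedASXL_011587 was steady in Bcat RNAi and near the detection limit in APC RNAi. It stood at 7.17, 6.80 and 5.94 CPM in Bcat RNAi and at 0.305, 0.210 and 0.113 CPM in APC RNAi, where 13, 10 and 6 reads were counted. All Bcat RNAi libraries were higher than all APC RNAi libraries, and the log2 difference was -5.01 ± 0.20 (SE; edgeR adjusted p = 1.705e-07). SmedASXL_058193 instead had a higher Bcat RNAi level at each later day, at 8.02, 14.1 and 23.2 CPM, while APC RNAi had 0.540, 0.608 and 0.432 CPM. Its gap was wider at each later day; the log2 difference over the 3 days was -4.82 ± 0.23 (SE; edgeR adjusted p = 7.039e-07). Of the 88 transcripts at least 2-fold lower, 82 had the same direction at all 3 days, and 79 had libraries that did not overlap. The APC RNAi libraries all lay below for 6287 (19.4%) of all transcripts tested. These 88 too were chosen in the same libraries. Of them, 4 were below 1 CPM in all 3 APC RNAi libraries.

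Part of the separation was in place by day 1. With a mean of at least 2 CPM, 171 transcripts (1.15%) were at least 2-fold higher and 84 (0.567%) at least 2-fold lower in APC RNAi at day 1, with 1 library a side and so no test at a single day. The counts were 241 (1.63%) and 157 (1.06%) at day 2, and 246 (1.66%) and 135 (0.911%) at day 3. At least 8-fold higher were 28, 35 and 29 transcripts at the 3 days, and at least 8-fold lower 6, 18 and 12. Both sides held the fewest 2-fold differences at day 1.

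Most large day 1 differences were seen again in the next libraries. Of the 171 higher at day 1, 129 (75.4%) were past 2-fold at day 2 and 118 (69%) at day 3. Of the 84 lower at day 1, 62 (73.8%) were past 2-fold at day 2 and 46 (54.8%) at day 3. Counting transcripts past 2-fold at any day, 112 of 340 higher ones were so at all 3 days, and 36 at day 1 alone. On the lower side 44 of 220 were past 2-fold at all 3 days, and 20 at day 1 alone. Past 2-fold at days 2 and 3 but not at day 1 were 71 of the 340 and 48 of the 220. Read back from day 3, 118 of 246 higher transcripts (48%) and 46 of 135 lower ones (34.1%) were past 2-fold at day 1.

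For day 1, transcripts not named above were taken where the log2 CPM averaged over both day 1 libraries was at least 1; of these, SmedASXL_012097 and SmedASXL_006770 lay furthest on the higher side. SmedASXL_012097 stood at 198, 69.0 and 59.3 CPM in APC RNAi and at 1.45, 0.335 and 0.194 CPM in Bcat RNAi. SmedASXL_006770 stood at 443, 229 and 189 CPM against 4.14, 1.04 and 0.466 CPM. Both were highest at day 1 and lowest at day 3 in both knockdowns, and the log2 differences were 7.06 and 6.73 at day 1 and 7.99 and 8.55 at day 3.

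Under the same minimum, SmedASXL_077671 and SmedASXL_014712 lay furthest on the lower side, and they differed at day 3. Transcripts below that minimum were further apart, among them SmedASXL_007720 and SmedASXL_033423 with day 1 log2 differences of -5.02 and -4.49. SmedASXL_014712 was flat in APC RNAi at 4.63, 4.74 and 4.82 CPM, against 43.2, 62.5 and 63.0 CPM in Bcat RNAi, with log2 differences of -3.21, -3.71 and -3.70. SmedASXL_077671 stood at 2.11 and 1.87 CPM in APC RNAi at days 1 and 2 but at 23.4 CPM at day 3, against 20.5, 25.4 and 20.6 CPM in Bcat RNAi. For the latter the groups overlapped, and its log2 difference over the 3 days of -1.95 (edgeR adjusted p = 0.03666) did not pass without the day blocks (adjusted p = 0.2129), without the day 2 libraries (0.1078) or in DESeq2 (0.06101).

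**Figure D2:**
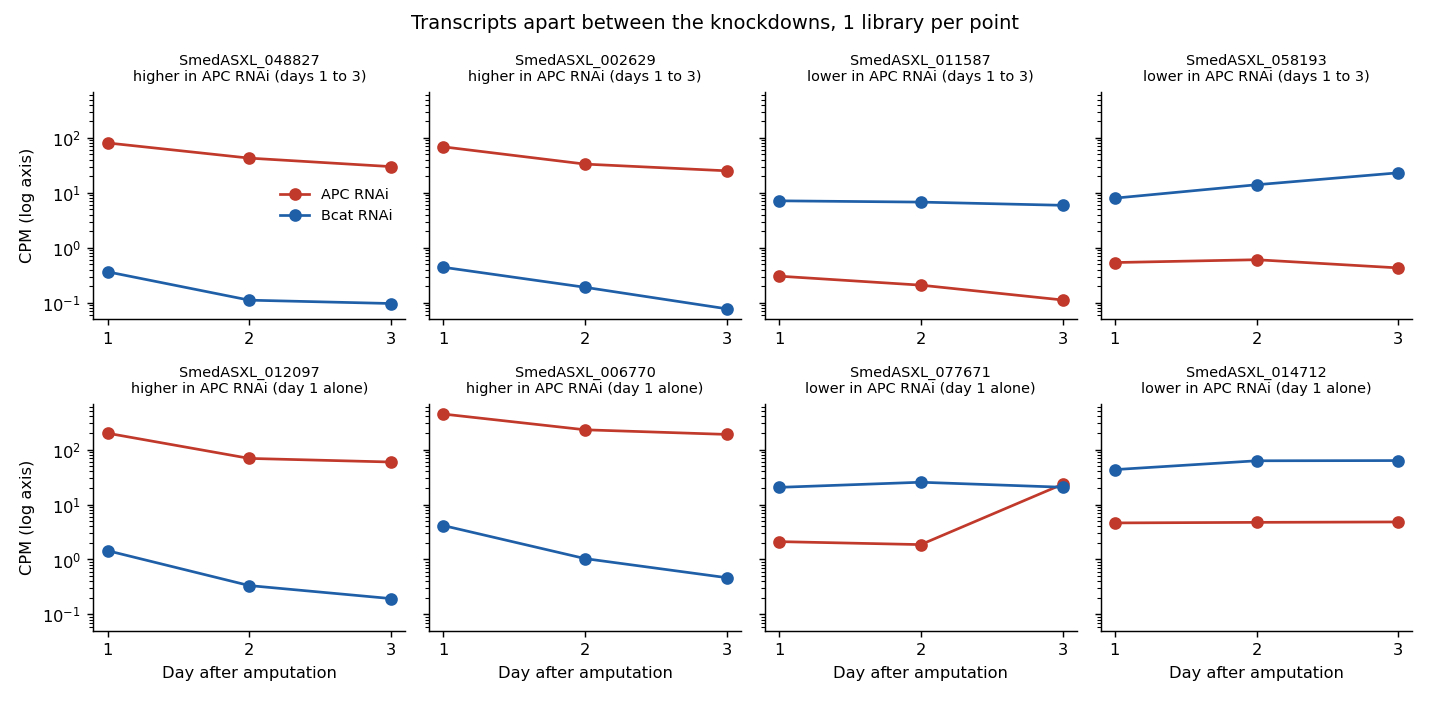
CPM on a log axis against day after amputation for the transcripts named for days 1 to 3 (top row) and for day 1 alone (bottom row), with 1 library per point, APC RNAi in red and Bcat RNAi in blue. The lines are far apart at every day except for SmedASXL_077671, which stood at 1.87 CPM at day 2 and 23.4 CPM at day 3 in APC RNAi, where it meets the Bcat RNAi line.

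The differences were wider at day 3 than at day 1 for most of the transcripts far apart, and in both sets at least 2-fold apart the median day 1 to day 3 change was larger in Bcat RNAi. Over the 179 higher transcripts the median level was 26.4, 26.2 and 24.1 CPM in APC RNAi, and 6.8, 5.47 and 5.05 CPM in Bcat RNAi. APC RNAi was nearly level while Bcat RNAi was lower at each later day, and the median log2 difference went from 1.31 through 1.56 to 1.64. The gap was wider at day 3 than at day 1 in 128 of the 179 (71.5%), against 53.3% of the 14827 at the same abundance minimum. Among the 4468 called higher by under 2-fold it was wider in 44.1%. For the 28 at least 8-fold higher, the median was 29.7, 27.7 and 26.3 CPM in APC RNAi and 1.09, 0.551 and 0.495 CPM in Bcat RNAi.

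On the lower side the Bcat RNAi level was instead higher at each later day. Over the 88 lower transcripts the median was 6.89, 9.65 and 10.2 CPM in Bcat RNAi and 2.5, 2.37 and 3.17 CPM in APC RNAi. The level was higher at day 3 than at day 1 in Bcat RNAi for 78 of the 88, against 48.4% of all 14827 transcripts, and in APC RNAi for 55, against 38.2%. The gap was wider at day 3 in 72 of the 88 (81.8%). Neither trait was particular to the transcripts far apart. Among the 1267 called lower by under 2-fold at the same abundance minimum, Bcat RNAi was higher at day 3 in 1117, and the gap was wider in 78%. For the 8 at least 8-fold lower, Bcat RNAi had medians of 9, 17.3 and 17 CPM and APC RNAi 1.66, 0.503 and 0.413 CPM, and there the median log2 change from day 1 to day 3 was larger in APC RNAi (-0.74) than in Bcat RNAi (0.49). These transcripts were chosen on the mean of the same libraries, so the medians are a description without a test.

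**Figure D3:**
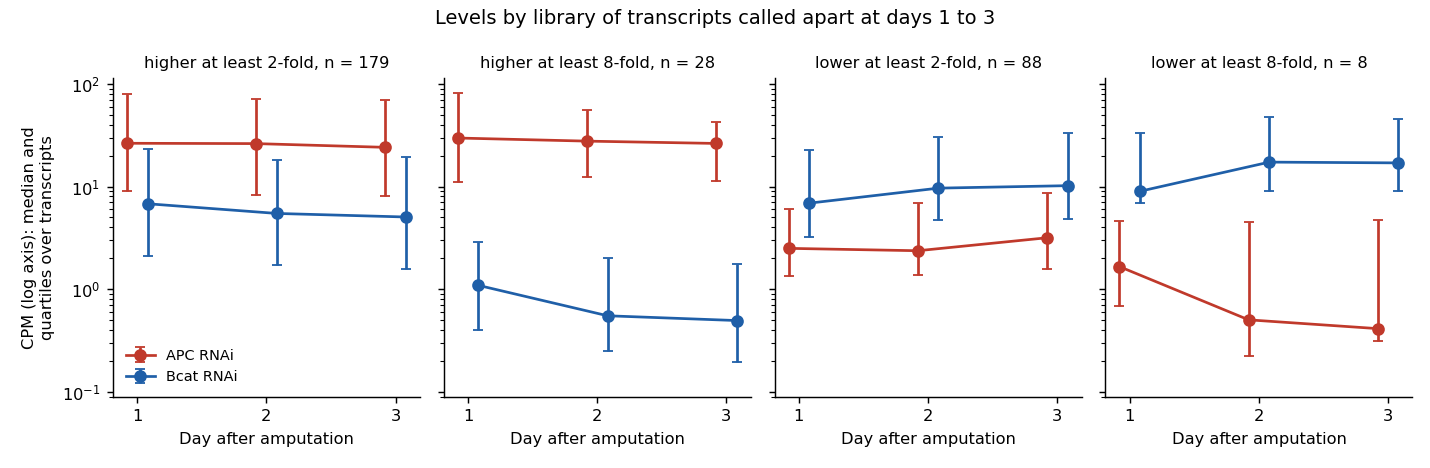
CPM by library on a log axis against day after amputation for the transcripts called at least 2-fold and at least 8-fold apart with a mean of 2 CPM or more, with points at the median and bars at the quartiles over transcripts, APC RNAi in red and Bcat RNAi in blue. In the higher groups the Bcat RNAi median is lowest at day 3 (5.05 CPM for the 179, after 6.8 at day 1), and in the lower groups it is lowest at day 1 (6.89 CPM for the 88, against 10.2 at day 3).

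Few transcripts changed their difference along the 3 days in a way the test could call. A term for treatment by day was past an adjusted p of 0.05 in edgeR's quasi-likelihood test for 669 transcripts (2.07%), 395 moving towards a higher level in APC RNAi and 274 towards Bcat RNAi. The difference widened in 171, narrowed in 46 and had opposite signs at days 1 and 3 in 452. With 3 days this model leaves 1 residual degree of freedom, and with day as a plain number in place of a factor it called 14 (10 and 4).

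The largest movements rested on 1 or 2 libraries. SmedASXL_033423 was at 0.117 and 0.0210 CPM in APC RNAi at days 1 and 2, from 5 reads and 1 read, and at 3.85 CPM at day 3. Bcat RNAi held 3.47, 3.53 and 3.01 CPM, and the fitted slope was 4.08 log2 units a day (edgeR adjusted p = 5.352e-09). The single-day log2 differences were -4.49, -5.90 and 0.35. That is a step rather than a steady change, so a fitted slope is not the change seen per day. SmedASXL_007720 went likewise from 0.258 and 0.335 to 4.58 CPM in APC RNAi, against 9.58, 8.94 and 6.86 CPM in Bcat RNAi. Its single-day log2 differences were -5.02, -4.58 and -0.58, and the fitted slope was 2.96 (edgeR adjusted p = 4.223e-11). In both, APC RNAi was low at days 1 and 2 and near the Bcat RNAi level at day 3. With day as a number the edgeR adjusted p was 0.0432 for SmedASXL_033423 and 0.005752 for SmedASXL_007720.

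Towards Bcat RNAi, SmedASXL_064188 stood at 324 CPM in APC RNAi at day 1 alone, from 13794 reads, and at 2.24 and 3.96 CPM at days 2 and 3. Bcat RNAi had 3.51, 5.54 and 16.6 CPM. One library thus decided its slope of -4.37; at days 2 and 3 the log2 difference was -1.29 and -2.05. SmedASXL_006717 was similar in both knockdowns at day 1, with 0.728 CPM in APC RNAi and 0.443 CPM in Bcat RNAi. At days 2 and 3 it stood at 0.0839 and 0.113 CPM in APC RNAi and at 6.11 and 4.58 CPM in Bcat RNAi. Its single-day log2 differences were 0.67, -5.65 and -4.93, again a step, and the fitted slope was -4.15. The edgeR adjusted p was 3.887e-12 and 4.188e-06 for the slopes of SmedASXL_064188 and SmedASXL_006717, and 0.0517 and 0.4209 with day as a number.

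A pattern of low APC RNAi at days 1 and 2 followed by a level near Bcat RNAi at day 3 was shared by a small set. With a mean of at least 2 CPM, 10 transcripts were at least 4-fold lower in APC RNAi at days 1 and 2 and within 2-fold at day 3. The mirror pattern, at least 4-fold higher at days 1 and 2 and within 2-fold at day 3, had 0. Their median level, scaled over the 12 knockdown libraries, was 0.792 and 0.651 CPM in APC RNAi at days 1 and 2, 5.58 CPM at day 3 and 6.59 to 8.89 CPM at days 4 to 6. In Bcat RNAi the medians ran from 5.33 to 9.69 CPM over the 6 days. By these medians only the APC RNAi libraries of days 1 and 2 were low, which are also the libraries with reads on the fewest transcripts. The part of that difference in this set was not tested. Single members varied: at days 4 to 6, 2 of the 10 were called lower in APC RNAi, 5 were called higher and 3 were not called.

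**Figure D4:**
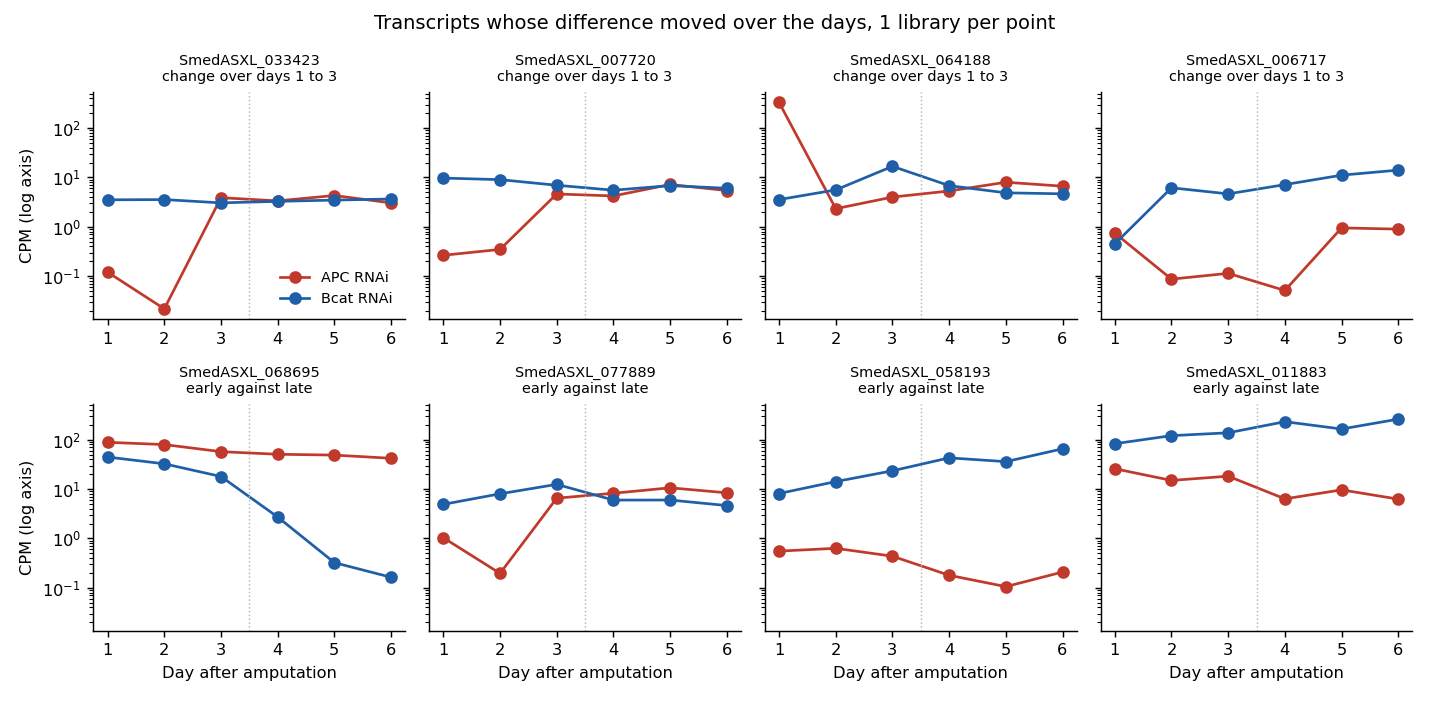
CPM on a log axis against day 1 to 6 after amputation for the transcripts with the largest change of difference over days 1 to 3 (top row) and between days 1 to 3 and days 4 to 6 (bottom row), with 1 library per point, APC RNAi in red and Bcat RNAi in blue and a dotted line between day 3 and day 4. SmedASXL_033423 and SmedASXL_007720 are low in APC RNAi at days 1 and 2 alone, and SmedASXL_064188 is high in APC RNAi at day 1 alone; CPM are scaled over the 12 libraries shown.

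The early differences were read again in the 6 knockdown libraries of days 4 to 6, which had no part in choosing them. There 6962 of 33173 transcripts (21%) were called higher and 6172 (18.6%) called lower in APC RNAi by edgeR's quasi-likelihood test. Of the 5003 early higher transcripts, 4408 (88.1%) were called higher late and 7 called lower. Of the 3201 early lower ones, 2228 (69.6%) were called lower late and 13 called higher. For those at least 2-fold apart with a mean of at least 2 CPM, 178 of 179 (99.4%) and 82 of 88 (93.2%) were called in the same direction, with median late log2 differences of 1.84 and -1.67. Of the 6 lower transcripts that were not, 4 were called higher late and 2 were not called. All 6 belonged to the set of 10 that was at least 4-fold lower in APC RNAi at days 1 and 2 and within 2-fold at day 3.

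Read the other way, most transcripts far apart late were already called early, but often by less. The late sets were called at least 2-fold apart at days 4 to 6 with a mean of at least 2 CPM in those libraries. Their early reading had no CPM minimum. Of the 305 higher late, 292 (95.7%) were called higher at days 1 to 3, and 155 (50.8%) were at least 2-fold higher then. Of 165 at least 2-fold lower late, 156 (94.5%) were called lower early and 98 (59.4%) were at least 2-fold lower. Over all 32352 tested early, 15.5% were called higher and 9.89% lower. Among the 14827 that reached the 2 CPM minimum in the early libraries, these shares were 31.3% and 9.14%. Early calls by 2-fold or more made up 1.21% of those 14827 on the higher side and 0.594% on the lower side.

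**Figure D5:**
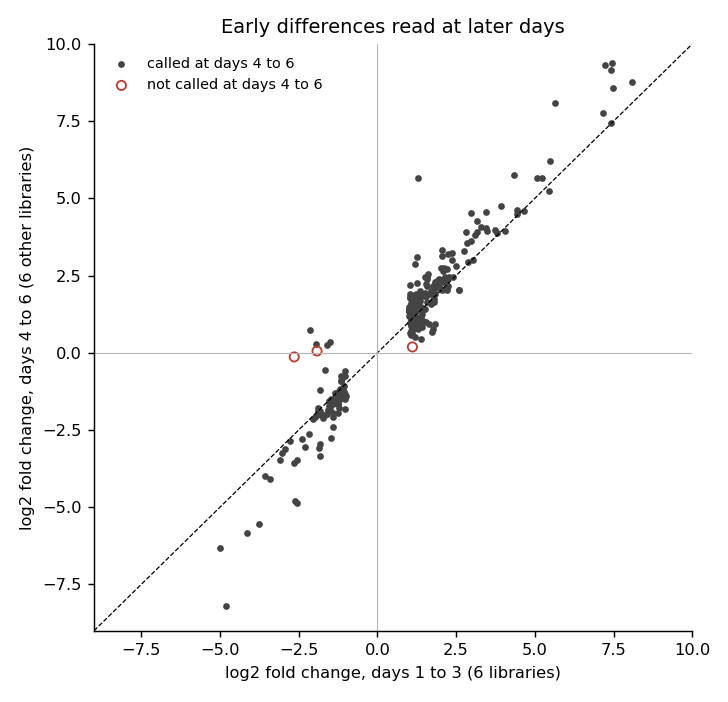
Log2 fold change of APC RNAi over Bcat RNAi at days 4 to 6 (vertical axis) against days 1 to 3 (horizontal axis) for the 179 and 88 transcripts at least 2-fold apart early with a mean of 2 CPM or more, from fits that share no library; filled points were called late, open points were not, and the dashed line marks equal values. Points lie on the same side of 0 at both times except for a few on the lower side, where 4 transcripts were called in the opposite direction late.

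A direct test of late minus early difference in the 12 knockdown libraries called 82 of 31810 transcripts (0.258%), 64 moving towards APC RNAi and 18 towards Bcat RNAi. The difference was wider late with the same sign in 57, narrower in 0 and of changed sign in 25. The count fell to 2 and 2 without the day blocks, and to 4 and 3 without the day 6 libraries.

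Levels from here on are CPM scaled over the 12 knockdown libraries together, so early values differ slightly from those above. SmedASXL_068695 moved most. In APC RNAi it stood at 88.6, 79.7 and 57.2 CPM at days 1 to 3 and at 50.7, 48.8 and 42.0 CPM at days 4 to 6. In Bcat RNAi it stood at 44.6, 32.5 and 17.9 CPM early and at 2.71, 0.322 and 0.163 CPM late. The groups lay apart by 1.31 log2 units early and 5.66 late, a change of 4.35 ± 0.45 (SE; edgeR adjusted p = 0.000791), which was called under all alternatives run for it.

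Towards Bcat RNAi, SmedASXL_058193 stood higher still at days 4 to 6 in Bcat RNAi, at 42.9, 35.9 and 65.4 CPM, while APC RNAi had 0.179, 0.105 and 0.208 CPM. Its log2 difference went from -4.82 to -8.19 (change -3.37 ± 0.42 SE; edgeR adjusted p = 0.003503). That call was lost without the day blocks (edgeR adjusted p = 0.4705) and without the day 6 libraries (0.06373). SmedASXL_011883 stood at 25.8, 15.0 and 18.2 CPM in APC RNAi early and 6.33, 9.63 and 6.25 CPM late. In Bcat RNAi it stood at 83.0, 121 and 138 CPM early and 232, 165 and 261 CPM late, and its change was -2.33 ± 0.32 (SE; edgeR adjusted p = 0.006631). That call was lost with the filter of 1 CPM in 3 libraries (edgeR adjusted p = 0.05553) and without the day 6 libraries (0.06708). Both transcripts had libraries that did not overlap at any day. Towards APC RNAi, SmedASXL_077889 was at 1.03 and 0.195 CPM in APC RNAi at days 1 and 2, at 6.53 CPM at day 3 and at 8.22 to 10.6 CPM later, against 4.63 to 12.4 CPM in Bcat RNAi. Its change of 2.78 (edgeR adjusted p = 0.02321) was not called without the day blocks (0.9998), with scaling on transcripts of 4 CPM or more (0.08378), with loess offsets (0.06827), with the 1 CPM filter (0.1426) or without the libraries of day 4 (0.07574), day 5 (0.06658) or day 6 (0.1507).

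The authors' deposited table of APC RNAi against Bcat RNAi covers all time points, these 6 libraries included, and lists 12115 transcripts. Of these, 7019 (57.9%) were called at days 1 to 3 with the sign given in the authors' deposited table, 0 were called with the other sign, and 5089 did not pass; 12108 were tested. The authors' deposited table holds 7019 of the 8204 early calls (85.6%) and 256 of the 267 at least 2-fold apart with a mean of at least 2 CPM (95.9%). Among the transcripts named above, SmedASXL_012097, SmedASXL_068695, SmedASXL_077671, SmedASXL_033423, SmedASXL_007720, SmedASXL_064188 and SmedASXL_077889 are not among its entries. Apart from SmedASXL_014712, the sizes given next are smaller than those here, early and late. The log2 fold change in the authors' deposited table is 4.91 for SmedASXL_048827, 3.29 for SmedASXL_002629 and 2.01 for SmedASXL_006770. The values here are 8.08, 7.48 and 7.44 at days 1 to 3, and 8.76, 8.56 and 9.4 in the fit of days 4 to 6 alone. It is -4.69 for SmedASXL_011587, -3.65 for SmedASXL_014712 and -2.54 for SmedASXL_058193 in the authors' deposited table, where the values here are -5.01, -3.56 and -4.82. For SmedASXL_006717 and SmedASXL_011883 the authors' deposited table gives -1.01 and -2.28. The values here are -3.39 and -2.56 at days 1 to 3, and -4.08 and -4.87 at days 4 to 6. Why the sizes differ was not tested.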

How the data were processed

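PolyA-selected RNA was sequenced after Illumina TruSeq preparation, per the labels' protocols. The authors deposited read counts per transcript, as whole numbers, for 82955 transcripts; the submitters' processing notes name the tools bcl2fastq 1.8.3, Bowtie2 2.2.4 and DESeq2. Near-identical transcripts and isoforms have uncertain values, since alignment settings, strand use and the handling of reads that match several transcripts are not given in the sources used here. Transcript counts summed to total minus unaligned reads in each library; the total and unaligned rows (unaligned 3.98% to 5.83% of reads) were left out. A second deposited table holds the authors' adjusted p-values and log2 fold changes for the same contrast with every time point, per the file headers.

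Counts were tested in R 4.3.3 with edgeR 4.0.16 (limma 3.58.1): filterByExpr by treatment, which kept 32352 transcripts and left out 0.309% of the reads, TMM factors, and the quasi-likelihood test with day as a factor and treatment (2 residual degrees of freedom). The Benjamini-Hochberg method adjusted p-values across every transcript in the fit, and calls needed a value under 0.05. CPM values are TMM-scaled, and single-day log2 differences use a prior count of 2. Separate models tested treatment by day, late minus early in 12 libraries, and days 4 to 6 alone. Alternatives were other scalings, filters, DESeq2 1.42.0, no day block, day as a number, more libraries in the model and days left out.

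The labels number libraries by day, so the day is the pairing; same-day deviations from the treatment means correlated at 0.144, 0.127 and 0.108. Every pair of the 6 libraries differed, with a chi-square of at least 5.21 per degree of freedom. p-values may measure technical and day-to-day spread. Transcripts were named by rule, at most 2 in each direction per comparison with mean log2 CPM not under 1: the largest smallest-of-3-days difference, the largest day 1 difference, or the largest coefficient past the threshold. The comparison, its rules and its lists were chosen with earlier results of these data known. Gene lists and the check of the RNAi targets were not run.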

Additional observations from a re-analysis of the deposited data

Results flagged for a closer look

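In edgeR's quasi-likelihood tests of a change of the difference with time, 669 transcripts were called over days 1 to 3 and 82 late minus early. The 8 given here are those named by rule for the largest coefficients. Over days 1 to 3 the fitted slope of the log2 difference was 4.08 a day for SmedASXL_033423 and 2.96 for SmedASXL_007720, both low in APC RNAi at days 1 and 2 alone. It was -4.37 for SmedASXL_064188, high in 1 library, and -4.15 for SmedASXL_006717, which differed from day 2 on. Between days 1 to 3 and days 4 to 6 the log2 difference changed by 4.35 for SmedASXL_068695 and by 2.78 for SmedASXL_077889, towards APC RNAi. It changed by -3.37 for SmedASXL_058193 and by -2.33 for SmedASXL_011883, towards Bcat RNAi. The causes were not tested.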

How the results depend on the processing

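The days 1 to 3 counts of 5003 higher and 3201 lower became 2526 and 5833 with scaling from transcripts of at least 4 CPM, and 2794 higher with loess offsets. They became 3225 higher with a filter of 1 CPM in 3 libraries, 982 lower with DESeq2, and 3189 and 2013 without the day as replicate block. Leaving out 1 day gave 2169 to 5693 higher and 854 to 3668 lower. By abundance, scaling from transcripts of at least 4 CPM gave 2355 lower below 1 CPM, 209 higher and 1298 lower at 1 to 4, 462 and 861 at 4 to 16, 865 and 934 at 16 to 64, and 836 and 385 above 64. Loess offsets gave 468 higher and 273 lower below 1 CPM, 375 lower at 1 to 4, 570 higher at 4 to 16, 819 and 867 at 16 to 64, and 483 and 535 above 64. Slope counts were 628 towards APC RNAi with loess offsets, and 10 and 4 with day as a number. The late minus early counts of 64 and 18 became 32 and 40 towards APC RNAi with those 2 scalings, 239 and 172 with no filter, 17 and 9 with the 1 CPM filter and 2 and 2 without the replicate block; leaving out 1 day gave 4 to 116 and 3 to 70. The causes were not tested. Of the named values, 16 under single alternatives lost the call, in SmedASXL_077671, SmedASXL_064188, SmedASXL_006717, SmedASXL_077889, SmedASXL_058193 and SmedASXL_011883, and 0 changed direction. Without the block SmedASXL_077671, SmedASXL_077889 and SmedASXL_058193 (late minus early) lost their calls among the transcripts named for days 1 to 3, day 1 and late minus early; the slopes were fitted with day as a number instead, where SmedASXL_064188 and SmedASXL_006717 lost theirs. With 1 pooled library per treatment and day, spread between animals was not measured.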
